A study of Mus musculus with 20 samples.

Results

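Livers of db/db mice given an extract of bamboo leaves were compared with livers of wild-type mice across all genes with enough reads. The members were set by the labels: the 4 libraries of db/db mice given, at 200 mg/kg, extract from leaves of Dendrocalamus latiflorus, a bamboo (DLE), and the 4 libraries of C57BL/6J wild type mice given saline (normal). These are 8 of the 16 libraries with values, and 14503 of 46078 gene entries passed the filter on low counts and were tested. Treatment lasted 12 weeks. The other 8 libraries, 4 of db/db mice given saline (model) and 4 of db/db mice given the antidiabetic drug pioglitazone at 20 mg/kg (PGZ), enter only as values set beside the contrast. The contrast asks what still differs from wild-type liver in a treated diabetic animal. DLE and normal mice differ at once in the db allele, in whatever strain background came with it, and in the extract, and no wild type mice given the extract were analysed here, so these cannot be told apart in this contrast. Strain background of the db/db group, age and sex are not given in the sources used here. Shared cages, days or batches are likewise not on the labels, so p-values measure the spread between these libraries, which may be partly technical.

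The db allele disrupts the long form of the leptin receptor, and homozygous mice overeat, become obese and diabetic, and store fat in the liver. Liver is also a strongly sex-biased organ in mice. The time pattern of growth hormone release from the pituitary, read by hepatocytes through JAK2 and the transcription factor STAT5B, maintains much of that bias, with pulses favouring male-biased genes and a steadier level favouring female-biased ones. Fatty acids entering the hepatocyte activate PPAR-alpha, which drives genes of fatty acid oxidation, while PPAR-gamma, low in healthy mouse liver, drives lipid storage genes in fatty liver.

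The 8 libraries held 18300173 to 24105179 (DLE) and 16922833 to 21622959 (normal) counted reads. Of these, 12.5 to 21.8% in DLE and 17.2 to 22.2% in normal libraries fell on mitochondrially encoded genes. The first principal component of log2 levels held 43.2% of the variance and separated the groups. On the second component, with 21.7%, model_DLE_361 and normal_376 stood apart from the other libraries of their groups, in opposite directions. The library model_DLE_361 had the highest mean of acute-phase genes, 9.0 on the log2(CPM + 0.5) scale against 6.87 to 7.19 in the other DLE libraries, and the lowest means of endothelial and of stellate cell and matrix genes. The library normal_376 had the lowest mean of nuclear respiratory chain genes, 5.89 against 7.01 to 7.23 in the other normal libraries. Results are given below with these libraries, and the counts of each list also without both. Among 13 hepatocyte markers tested, 0 was called higher and 1 lower (0 without model_DLE_373, model_DLE_378, model_DLE_401, normal_346, normal_349 or normal_409 and 3 without model_DLE_361). With both model_DLE_361 and normal_376 left out, 6 of the 13 were called lower, in a fit that called 610 of 14680 genes lower. Albumin (Alb) ranged from 25706 to 77862 CPM (reads per 1000000 counted reads, after TMM scaling) in DLE and from 19009 to 59087 CPM in normal libraries. All 8 libraries held many reads of the Y-linked gene Ddx3y, 977 to 1620 in DLE and 794 to 1387 in normal libraries, and few of Xist, 4 to 10 and 1 to 19. By these counts all 8 libraries came from male mice.

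**Figure D1:**
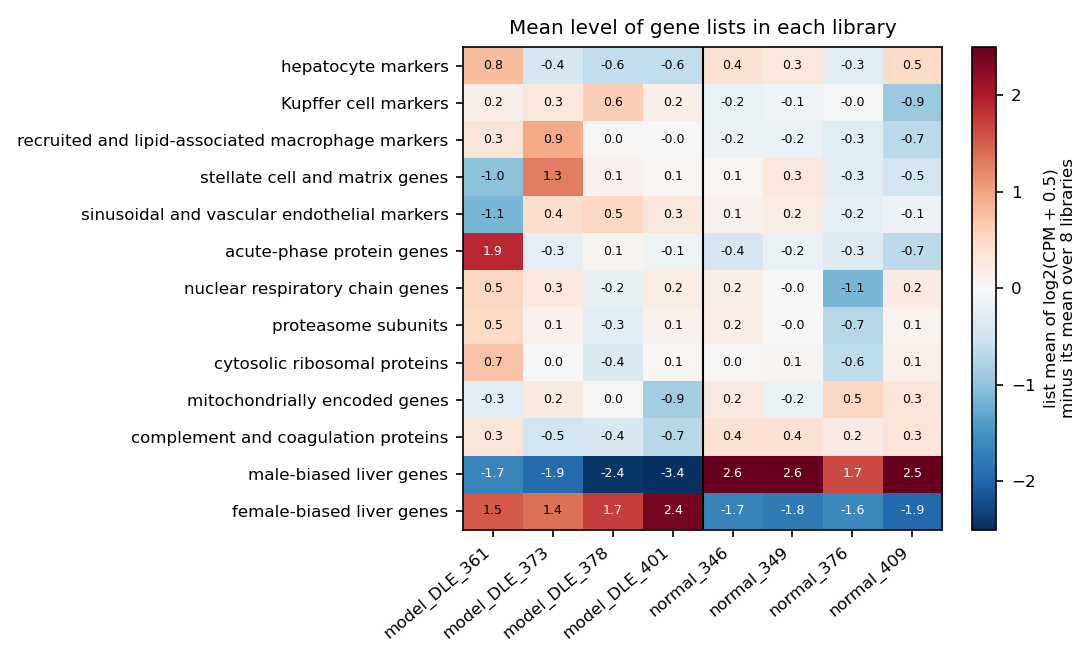
Mean log2(CPM + 0.5) of 13 gene lists in each library (columns, DLE left of normal), minus the mean of that list over the 8 libraries. Model_DLE_361 differs from the other DLE libraries in the acute-phase and stromal means, and normal_376 from the other normal libraries in the respiratory chain mean, while the male-biased and female-biased means separate the groups in all 8 libraries.

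Among lists with at least 10 members tested, by the share of members called, DLE livers differed from normal livers most in male-biased and female-biased genes, then in genes of fatty acid oxidation and of lipid storage, while cholesterol synthesis, ribosomal, respiratory chain and cell cycle genes had no called member. The lists were chosen with earlier results of these data known, so this order may partly restate that choice. Of the 14503 genes, 338 were called higher and 337 lower in DLE (edgeR quasi-likelihood test, Benjamini-Hochberg adjusted p under 0.05), which is 4.65% called, 2.33% higher and 2.32% lower. The 2 groups did not overlap in 12.6% of all genes tested and in 650 of the 675 called. Changes of more than 2-fold were seen in 308 called genes that rose and 262 that fell. The median log2 fold change (DLE over normal) of all genes was 0.03. Called genes were more frequent among abundant genes, with 8.42% of genes at a mean of at least 100 CPM and 1.31% of those under 1 CPM. With 1 library left out at a time, the count was lowest without normal_346 (350), normal_349 (365) and normal_409 (385), and 295 of the 675 genes were called in all 8 such fits. Without both model_DLE_361 and normal_376 the count was 1306 of 14680 genes tested (696 higher, 610 lower), and 599 of the 675 were among them. List counts without both libraries stand against these larger totals, not against the shares of the main fit. In the fit of all 4 groups 557 genes were called, of which 456 were among the 675. Genes named below without remark were called in all 8 fits with a library left out. Of 105 called genes named in all apart from Egfr and Igfals, 27 were not called in the fit of all 4 groups, namely Abcb11, Aox3, Ccng1, Cd63, Cebpd, Ces1d, Cux2, Cyp2b10, Derl3, Enho, Fgf21, Gnmt, H2-Aa, Hamp2, Iigp1, Junb, Lcn2, Lgals3, Lyz2, Meg3, Nr1i3, Orm2, Pdk1, Pfkfb2, Pkm, Sdf2l1 and Thrsp.

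**Figure D2:**
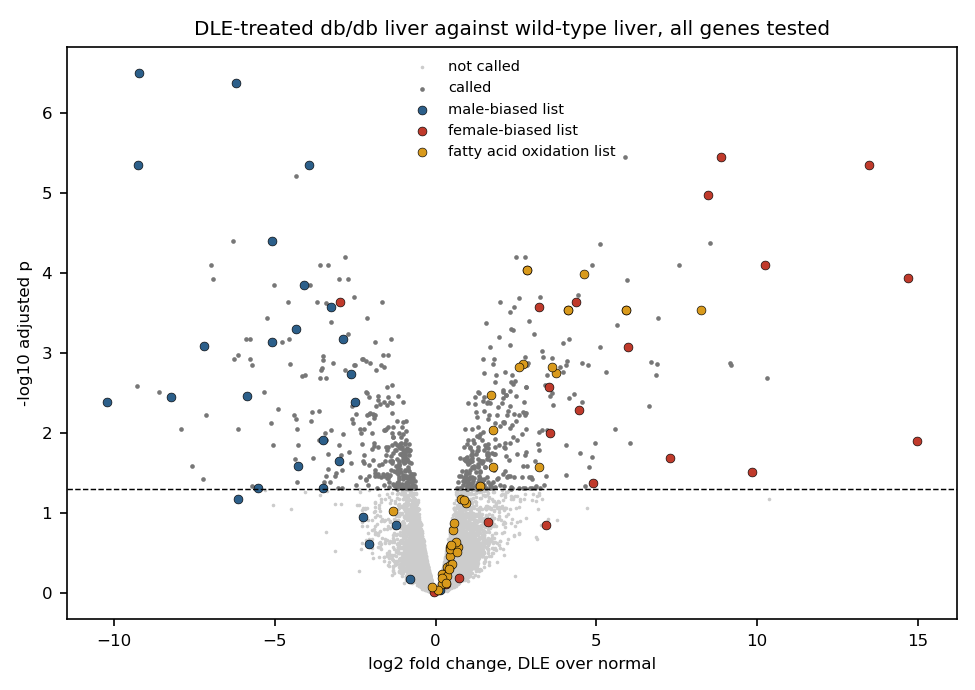
Log2 fold change of DLE over normal (x axis) against -log10 of the adjusted p (y axis) for every gene tested, with the dashed line at an adjusted p of 0.05. Most genes of the male-biased list lie to the left and most of the female-biased list to the right, and fitted fold changes of genes with no read in a group are not estimates of size.

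Lepr, the gene of the db allele, encodes the leptin receptor. Counts per gene do not show which transcript the reads came from, so they do not check the allele. Lepr was at 3.12, 9.85, 12.3 and 19.4 CPM in the DLE libraries (in the order model_DLE_361, model_DLE_373, model_DLE_378 and model_DLE_401, kept throughout), against 1.44, 1.47, 1.85 and 2.07 CPM in normal libraries (libraries normal_346, normal_349, normal_376 and normal_409). Every DLE library lay above every normal library, with model_DLE_361 nearest to them (log2 fold change 2.71, SE 0.46, adjusted p = 0.00551). Lepr lies on chromosome 4 (GRCm38, chr4:101717404-101815352). Within 5 Mb to either side of it, 6 of 44 genes tested were called (13.6%), against 4.65% of all genes. Besides Lepr these were Ak4, a mitochondrial adenylate kinase, which was higher, and C8a, a complement component, Ror1, a receptor tyrosine kinase, Ube2u, a ubiquitin-conjugating enzyme, and the predicted gene Gm12718, which were lower. Ube2u stood at 0.0961, 0, 0.0486 and 0 CPM in DLE and 2.16, 2.99, 1.76 and 2.68 CPM in normal livers, with no overlap (log2 fold change -5.89, SE 0.71, adjusted p = 6.69e-04). Ak4 was not called without normal_349 or normal_409, and C8a was not called without model_DLE_373, model_DLE_378, normal_346, normal_349 or normal_409. Around H2-K1 in the histocompatibility region, the same window held 10 called genes of 209 (4.78%). Nnt, the mitochondrial transhydrogenase, in which C57BL/6J mice carry a deletion of several exons, was at 72.0, 56.0, 53.3 and 45.6 CPM in DLE and 41.9, 42.1, 31.4 and 38.8 CPM in normal livers and was not called (adjusted p = 0.142).

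Male-biased liver genes fell together. Of 29 genes on the list, 27 were in the table and all 27 were tested, and 21 fell, none rose, and 6 were not called. Their median log2 fold change was -4.09, against 0.03 over all genes. The share called lower over all genes was 2.32%. The 21 include major urinary protein (Mup) genes, near-identical copies that may share reads, so this is not a count of independent genes. Each library left out in turn gave 17 to 21 lower, and without both model_DLE_361 and normal_376 the number was 20. Selenbp2, a selenium-binding protein, was at 7.54, 4.64, 6.90 and 7.81 CPM in DLE livers, against 3890.3, 3907, 4268 and 3953 CPM in normal livers. Within each group its libraries lay close together, and no DLE library came near the normal ones (log2 fold change -9.22, SE 0.38, adjusted p = 3.17e-07). Slco1a1, an uptake transporter for organic anions and bile acids, stood at 3.07, 5.03, 4.52 and 3.41 CPM in DLE and 326.9, 324, 231 and 305 CPM in normal livers (log2 fold change -6.21, SE 0.28, adjusted p = 4.21e-07). Hsd3b5, an enzyme of steroid metabolism in male liver, stood at 0.625, 0.175, 0.0972 and 0.411 CPM in DLE and 255, 229, 82.6 and 248 CPM in normal livers (log2 fold change -9.25, SE 0.58, adjusted p = 4.48e-06), and its relative Hsd3b2 at 20.2, 24.9, 29.5 and 22.2 CPM in DLE and 288, 412, 377.6 and 421 CPM in normal livers (log2 fold change -3.95, SE 0.25, adjusted p = 4.48e-06). For all 3 the groups were far apart, and normal_376 was the lowest normal library for Slco1a1 and Hsd3b5. The same held for Cyp7b1, which hydroxylates oxysterols in the alternative pathway of bile acid synthesis, at 11.4, 8.27, 8.41 and 6.13 CPM in DLE and 372, 372, 118 and 317 CPM in normal livers (log2 fold change -5.11, SE 0.40, adjusted p = 3.98e-05). Elovl3, which elongates very long chain fatty acids, averaged 4.91 ± 2.56 CPM in DLE and 100.3 ± 47.3 CPM in normal livers (SD, n = 4 each; log2 fold change -4.35, SE 0.49, adjusted p = 4.99e-04).

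**Figure D3:**
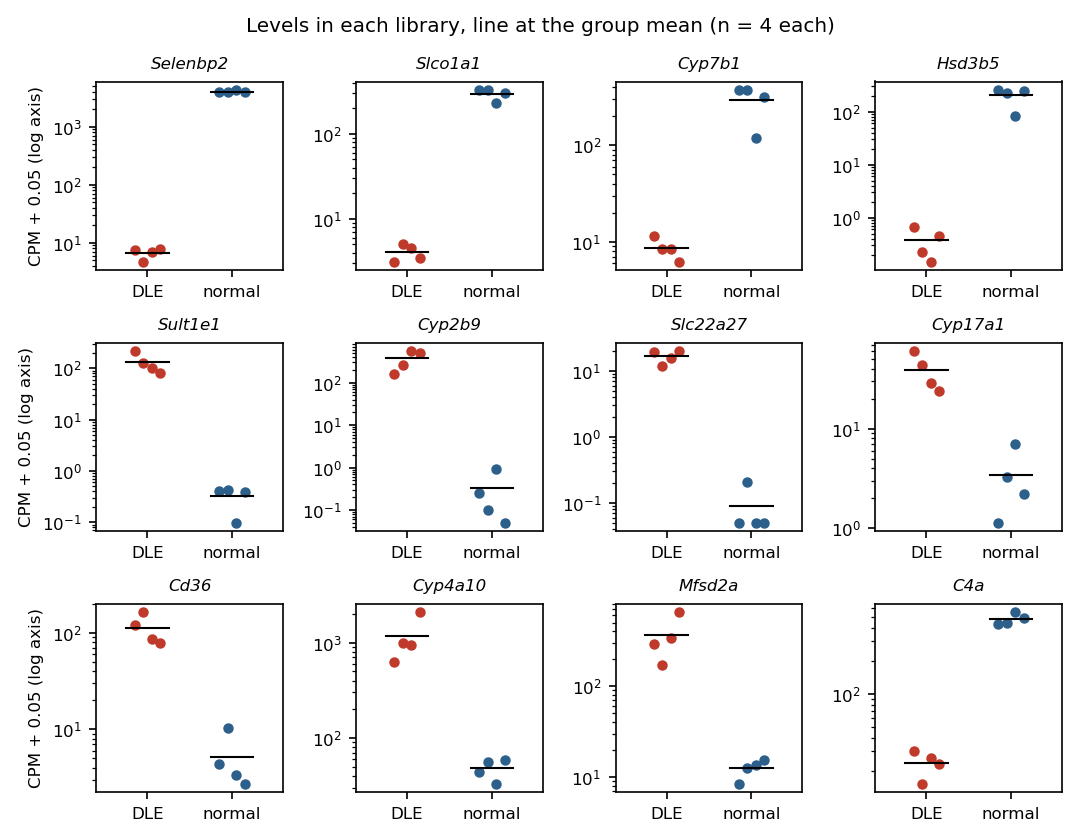
CPM + 0.05 of 12 genes on log axes in each library, DLE left of normal, with a line at the group mean. In all 12 the groups do not overlap, with the top row and C4a lower in DLE and the other genes higher.

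The major urinary protein genes, which encode the pheromone carriers that male mice excrete, fell as a family. Of 20 Mup genes and pseudogenes tested, 17 fell (85%, against 2.32% of all genes) and none rose. On the male-biased list are 5 of those that fell. These genes are near-identical copies, and how reads that match several of them were counted was not given in the sources used here, so single members are uncertain. Mup7 was at 7.11, 13.7, 3.98 and 0.0411 CPM in DLE and 12453, 9402, 799.8 and 7093 CPM in normal livers (log2 fold change -10.22, SE 1.51, adjusted p = 0.00404), and Mup11 at 35.6, 23.7, 51.3 and 1.77 CPM in DLE and 4297, 4889.7, 4631 and 2737 CPM in normal livers (log2 fold change -7.20, SE 0.88, adjusted p = 8.21e-04). The groups did not overlap, but the libraries spread widely, with model_DLE_401 lowest in DLE for both genes and normal_376 lowest in normal for Mup7. Serpina1e, an alpha-1-antitrypsin copy with near-identical relatives, stood at 157, 13.1, 14.4 and 5.39 CPM in DLE and 9371, 8197, 4056 and 5241 CPM in normal livers (log2 fold change -7.14, SE 1.16, adjusted p = 0.00602). Model_DLE_361 was the highest DLE library, and without it the log2 fold change was -9.26. Rnase2a, a ribonuclease of the eosinophil type, had no read in any DLE library and 3.5, 8.23, 1.09 and 2.54 CPM in normal livers, which with a floor of 3 reads over the group makes it at least 113-fold lower in DLE (adjusted p = 0.0026).

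Female-biased liver genes moved the other way. Of 31 genes, 25 were tested, and 18 of these rose, 1 fell and 6 were not called, while the other 6 did not pass the filter on low counts. The median log2 fold change of the tested members was 4.36, also with genes without a normal read set at their lower bound, and leaving out 1 library at a time gave 14 to 21 higher (15 without both model_DLE_361 and normal_376). The share called higher over all genes was 2.33%. Sult1e1, the estrogen sulfotransferase, was at 216, 128, 99.96 and 79.0 CPM in DLE and 0.36, 0.367, 0.0475 and 0.335 CPM in normal livers (log2 fold change 8.88, SE 0.51, adjusted p = 3.56e-06). Cyp2b9, a cytochrome P450 of female liver, stood at 164, 259.5, 556 and 511 CPM in DLE and 0.206, 0.0524, 0.855 and 0 CPM in normal livers (log2 fold change 10.26, SE 0.85, adjusted p = 8.02e-05). In both genes the gap between the groups was far wider than the spread within either. Several female-biased genes had no read at all in the normal libraries. Sult3a1, an amine sulfotransferase, was at 76.2, 44.5, 87.7 and 75.6 CPM in DLE and at 0 in all 4 normal libraries, at least 1751-fold higher (adjusted p = 4.48e-06). This bound rests on a floor of 3 reads over the normal group, 0.0403 CPM. Cyp2b13 was at 8.36, 260.0, 216 and 299 CPM in DLE and at 0 in normal livers, with model_DLE_361 far below the other DLE libraries (adjusted p = 0.0126, not called without normal_349 or normal_376). Slc22a27, an organic anion transporter, was at 19.0, 11.8, 15.5 and 19.9 CPM in DLE, while 3 reads, all of normal_349, were counted in the normal group, a ratio of 412 (141 to 2000.0) (exact 95% counting interval, counting error only). Cyp17a1, the steroid 17-alpha-hydroxylase, stood at 60.3, 44.2, 28.7 and 24.0 CPM in DLE and 1.08, 3.25, 6.93 and 2.14 CPM in normal livers (log2 fold change 3.54, SE 0.51, adjusted p = 0.00266). The one member that fell was Lifr, the receptor of leukaemia inhibitory factor, at 71.8, 78.2, 124 and 107 CPM in DLE and 800.2, 957, 456 and 774 CPM in normal livers (log2 fold change -2.97, SE 0.31, adjusted p = 2.33e-04). The groups did not overlap.

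Genes outside the lists were also among those that changed most. Sult3a2, Cyp2a22 and Rsph4a, a radial spoke protein of cilia, were among the 10 largest increases. Cyp2a22 was at 91.1, 579, 524 and 498 CPM in DLE and 0.926, 0.839, 1.95 and 0.803 CPM in normal livers, with model_DLE_361 lowest in DLE (log2 fold change 8.52, SE 0.67, adjusted p = 4.21e-05). Rsph4a was at 5.62, 1.49, 4.67 and 2.34 CPM in DLE and at 0 in the normal libraries, at least 85.3-fold higher (adjusted p = 0.00134). It lies at chr10:33905111-33916021, on the same strand as its neighbour Sult3a1 (chr10:33857721-33879532) and near Sult3a2 (chr10:33766424-33786704). Whether its rise is separate from that of these neighbours was not tested. By family, with members on and off the lists counted together, 3 of 3 Cyp2b genes tested, 3 of 4 Cyp2a, 3 of 6 Cyp4a and 5 of 11 Acot genes rose with none lower. Sulfotransferases were mixed, with 5 of 10 higher and 2 lower, as were the Slc22a transporters, with 4 of 16 higher and 3 lower. None of 4 Cyp3a genes was called. Over all genes 2.33% were called higher and 2.32% lower. Near-identical copies in these families share reads, so the family counts are not counts of independent genes.

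Genes of the growth hormone pathway itself were called less often than the sex-biased genes, a difference that was not tested. Of 18 genes on that list, all tested, 1 rose, 4 fell and 13 were not called, with a median log2 fold change of -0.46. That is 5.56% higher and 22.2% lower, against 2.33% and 2.32% of all genes. The receptor Ghr was at 318, 311, 279 and 177 CPM in DLE and 478, 402, 294 and 468 CPM in normal livers (adjusted p = 0.264), and Stat5b at 46.2, 56.5, 72.7 and 52.4 CPM in DLE and 61.6, 73.4, 83.3 and 65.1 CPM in normal livers (adjusted p = 0.449). Neither was called, and in both the groups overlapped. Among direct targets, Igf1, the growth factor, was at 1017, 399, 461 and 355 CPM in DLE and 1099, 1112, 867 and 1235 CPM in normal livers and was not called (adjusted p = 0.174). Only model_DLE_361 lay within the normal range of Igf1, and the other DLE libraries lay below it. Cish, a feedback inhibitor induced by STAT5, fell to 11.7, 6.39, 16.0 and 13.7 CPM in DLE, against 88.7, 76.6, 19.9 and 52.1 CPM in normal livers. The groups did not overlap, but the highest DLE value lay close to normal_376 (log2 fold change -2.31, SE 0.43, adjusted p = 0.0101). Bcl6, a repressor that occupies STAT5 sites and is higher in male liver, was at 34.4, 23.3, 41.4 and 23.2 CPM in DLE and 85.2, 94.8, 222 and 59.0 CPM in normal livers (log2 fold change -1.92, SE 0.38, adjusted p = 0.0147) and was not called without model_DLE_401. Cux2, a repressor that is higher in female liver and also counted among the female-biased genes, stood at 8.79, 1.62, 26.5 and 86.7 CPM in DLE and 0.515, 1.10, 0.712 and 1.94 CPM in normal livers (log2 fold change 4.89, SE 1.12, adjusted p = 0.042). Model_DLE_373 lay among the normal values, and Cux2 was not called without model_DLE_378, normal_346, normal_349, normal_376 or normal_409. Egfr and Igfals of this list also fell (log2 fold change -2.23 and -1.44, adjusted p = 0.0236 and 0.0341). The groups overlapped for Igfals and not for Egfr. Neither gene was called in every fit with a library left out, nor in the fit of all 4 groups (adjusted p = 0.185 and 0.107). The count of 4 lower became 1 without model_DLE_401, 2 without model_DLE_373, model_DLE_378, normal_346, normal_349 or normal_409 and 7 without model_DLE_361, and that of 1 higher 0 without model_DLE_378, normal_346, normal_349, normal_376 or normal_409 and 2 without model_DLE_361. Lower and higher counts were 8 and 0 without both model_DLE_361 and normal_376, and 2 and 0 in the fit of all 4 groups.

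Promoter sequence is shown for female-biased genes that hold the STAT5 core motif, and for the male-biased gene that fell with the smallest p, which does not. The motif searched was TTCNNNGAA, which reads the same on both strands, in RefSeq windows (GRCm38.p6) from 250 bases before to 50 after the gene start. It was found in 8.47% of 27025 promoters and in 7.04% of those of 10421 tested genes with a window. Of the called sex-biased genes with a window, 0 of 15 male-biased genes that fell and 3 of 14 female-biased genes that rose held it. Capitals mark the match.
Sult3a1 (chr10:33857472-33857771, plus strand, match -109 from the start): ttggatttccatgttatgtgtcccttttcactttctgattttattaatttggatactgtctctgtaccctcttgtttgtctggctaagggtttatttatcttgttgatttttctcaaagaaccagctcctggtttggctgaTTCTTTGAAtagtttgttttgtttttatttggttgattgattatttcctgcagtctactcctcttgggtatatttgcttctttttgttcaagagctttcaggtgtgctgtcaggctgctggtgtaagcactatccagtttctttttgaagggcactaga
Slc22a26 (chr19:7802618-7802917, minus strand, match -141 from the start): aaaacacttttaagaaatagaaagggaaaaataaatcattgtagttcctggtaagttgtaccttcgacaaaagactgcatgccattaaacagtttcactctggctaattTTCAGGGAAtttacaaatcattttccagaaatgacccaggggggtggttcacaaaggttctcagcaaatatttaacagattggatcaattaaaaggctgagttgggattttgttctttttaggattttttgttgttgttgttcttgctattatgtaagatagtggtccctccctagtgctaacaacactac
A1bg (chr15:60921221-60921520, minus strand, match -84 from the start): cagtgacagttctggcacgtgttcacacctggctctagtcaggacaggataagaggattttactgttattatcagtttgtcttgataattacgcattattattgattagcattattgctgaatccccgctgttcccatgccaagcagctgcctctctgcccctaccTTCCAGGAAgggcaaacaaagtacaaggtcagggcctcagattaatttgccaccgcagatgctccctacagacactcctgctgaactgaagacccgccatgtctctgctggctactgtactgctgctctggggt
Selenbp2 (chr3:94693323-94693622, plus strand, no match): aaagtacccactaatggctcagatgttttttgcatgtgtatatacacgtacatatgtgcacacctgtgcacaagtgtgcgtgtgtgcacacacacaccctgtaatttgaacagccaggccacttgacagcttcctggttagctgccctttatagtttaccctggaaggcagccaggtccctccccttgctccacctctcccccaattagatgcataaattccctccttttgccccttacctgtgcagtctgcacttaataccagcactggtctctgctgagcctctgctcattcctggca
These matches describe letters in a window and are not binding sites. Slc22a26, an organic anion transporter, was at 40, 4.55, 18.6 and 36.2 CPM in DLE and 0.566, 0.157, 0.427 and 0.402 CPM in normal livers (log2 fold change 5.98, SE 0.70, adjusted p = 8.37e-04), and A1bg, a plasma glycoprotein, at 5.19, 0.919, 1.12 and 15.3 CPM in DLE and at 0 in the normal libraries. A1bg was not called without normal_346, normal_349, normal_376 or normal_409.

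Genes of fatty acid uptake and storage were higher in DLE livers. Of 30 genes of PPAR-gamma and lipid droplets, 27 were tested, 9 rose, none fell and 18 were not called, with a median log2 fold change of 1.23. The share that rose was 33.3%, against 2.33% of all genes. Cd36, the fatty acid translocase, was at 121, 164, 86.9 and 78.7 CPM in DLE and 4.32, 10.3, 3.32 and 2.68 CPM in normal livers (log2 fold change 4.44, SE 0.44, adjusted p = 1.89e-04). Vldlr, the very low density lipoprotein receptor, was at 4.61, 17.6, 21.3 and 32.6 CPM in DLE and 0.103, 0.42, 0.475 and 0.535 CPM in normal livers (log2 fold change 5.63, SE 0.63, adjusted p = 4.49e-04). Mogat2, which makes diacylglycerol, was at 3.56, 3.94, 7.09 and 3.04 CPM in DLE and 0.103, 0.472, 0.095 and 0.402 CPM in normal livers (log2 fold change 4.05, SE 0.56, adjusted p = 0.00142). All 3 were separated in every library, with model_DLE_361 the lowest DLE library for Vldlr. Plin4, a lipid droplet coat protein, was at 38.4, 69.6, 26.6 and 199 CPM in DLE and 6.23, 11.3, 9.17 and 10.2 CPM in normal livers, with model_DLE_401 far above the rest (log2 fold change 3.18, SE 0.59, adjusted p = 0.0137; not called without normal_346 or normal_376). Pparg itself was at 18.9, 17.5, 9.28 and 9.79 CPM in DLE and 6.33, 6.08, 3.99 and 5.69 CPM in normal livers (log2 fold change 1.33, SE 0.29, adjusted p = 0.021; not called without model_DLE_373, normal_346, normal_349 or normal_409). The droplet fusion gene Cidec, at 9.66, 27.1, 3.84 and 9.25 CPM in DLE and 2.88, 4.30, 1.42 and 3.21 CPM in normal livers, missed the threshold (adjusted p = 0.0513). The count of 9 became 3 without normal_346, 4 without model_DLE_373 and 5 without normal_349 or normal_376, and 7 without both model_DLE_361 and normal_376.

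PPAR-alpha targets and genes of fatty acid oxidation rose in number without any that fell. Of 42 genes, 40 were tested, 14 rose, none fell and 26 were not called, with a median log2 fold change of 0.60. The share that rose was 35%, against 2.33% of all genes. Leaving out 1 library at a time gave 11 to 15, and without both model_DLE_361 and normal_376 the number was 14. Cyp4a10 and Cyp4a14 are omega-hydroxylases of fatty acids. Cyp4a10 was at 626, 999, 955 and 2089 CPM in DLE and 43.5, 56.5, 33.0 and 58.7 CPM in normal livers (log2 fold change 4.61, SE 0.42, adjusted p = 1.04e-04), and Cyp4a14 at 801, 681, 649 and 2943 CPM in DLE and 2.37, 9.70, 1.61 and 2.81 CPM in normal livers (log2 fold change 8.26, SE 0.86, adjusted p = 2.88e-04). In both genes model_DLE_401 was the highest library, and no groups overlapped. Acot3, a peroxisomal acyl-CoA thioesterase, was at 71.6, 104, 199 and 299.7 CPM in DLE and 1.8, 0.996, 4.37 and 3.88 CPM in normal livers (log2 fold change 5.93, SE 0.61, adjusted p = 2.88e-04), and Acot4 at 50.4, 62.2, 78.4 and 101 CPM in DLE and 11, 7.39, 12.5 and 9.57 CPM in normal livers (log2 fold change 2.85, SE 0.26, adjusted p = 9.24e-05). Pdk4, which restrains pyruvate entry into the citrate cycle, was at 13, 13.9, 6.22 and 33.0 CPM in DLE and 1.03, 2.05, 0.57 and 1.27 CPM in normal livers (log2 fold change 3.75, SE 0.53, adjusted p = 0.0018). Fgf21, a fasting hormone of the liver, was at 5.43, 4.68, 6.41 and 10.2 CPM in DLE and 0.103, 0.472, 0.855 and 0.736 CPM in normal livers (log2 fold change 3.62, SE 0.50, adjusted p = 0.0015). For these 4 as well, each DLE library was higher than each normal one. Abcd2, a peroxisomal importer of fatty acids, averaged 8.26 ± 4.05 CPM in DLE and 0.467 ± 0.207 CPM in normal livers (SD, n = 4 each; log2 fold change 4.12, SE 0.45, adjusted p = 2.88e-04). Cpt1a, the carnitine acyltransferase that admits fatty acids to mitochondria, was not called and was at 377, 297, 377.7 and 320.1 CPM in DLE and 233, 221, 351 and 268 CPM in normal livers (adjusted p = 0.472). Ppara itself was at 29.7, 42.1, 66.6 and 68.7 CPM in DLE and 25.5, 27.1, 21.6 and 34.0 CPM in normal livers, with overlap, and was not called (log2 fold change 0.94, adjusted p = 0.0757).

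**Figure D4:**
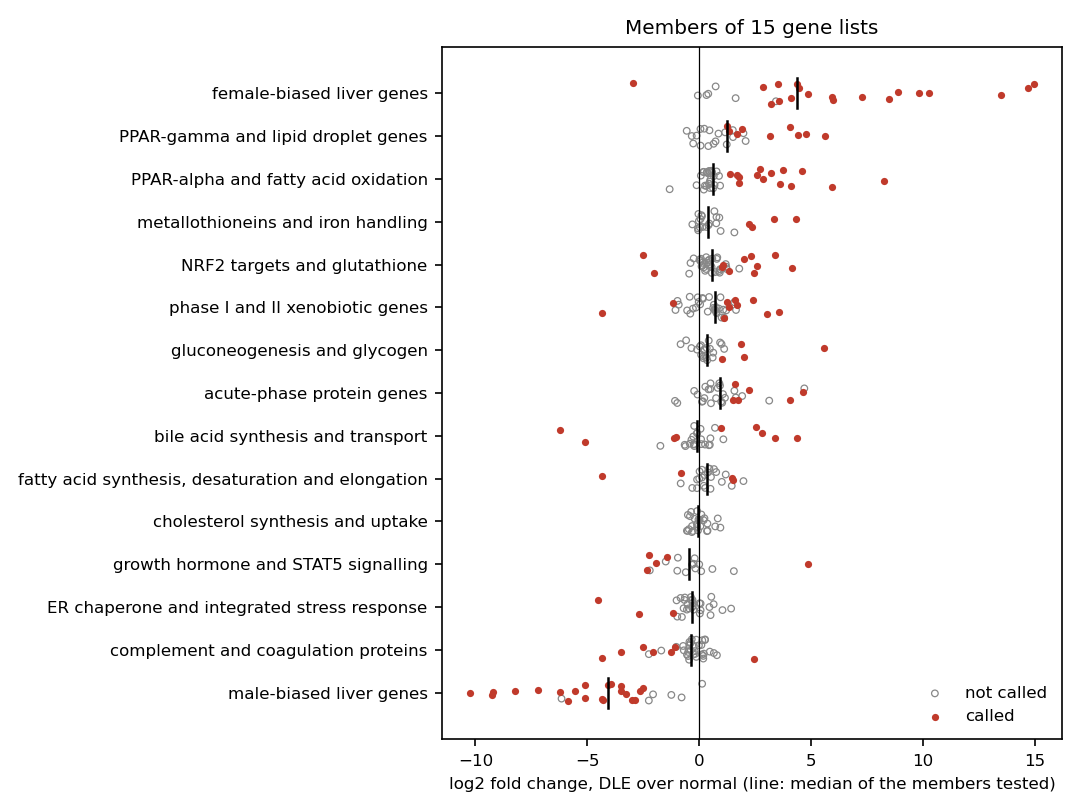
Log2 fold change of DLE over normal (x axis) of each tested member of 15 gene lists (rows), filled where called, with a line at the median of the members tested. Most male-biased members lie to the left and most female-biased members to the right, and no member of the cholesterol list was called.

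Genes of fatty acid synthesis had calls in both directions, and those of cholesterol synthesis had none. Of 26 genes of fatty acid synthesis, desaturation and elongation tested, 2 rose and 2 fell (15.4% called, against 4.65% of all genes), with a median log2 fold change of 0.33. Those that rose were Gpam, the acyltransferase that starts glycerolipid synthesis, and Thrsp, a lipogenic regulator, and those that fell were the elongases Elovl3 and Elovl2. Gpam was at 26.2, 46.7, 55.3 and 76.0 CPM in DLE and 17.4, 18.2, 12.1 and 24.1 CPM in normal livers (log2 fold change 1.51, SE 0.31, adjusted p = 0.0164; not called without normal_346 or normal_349). Thrsp was not called without model_DLE_401, normal_346, normal_349 or normal_409 (log2 fold change 1.46), nor Elovl2 without model_DLE_373, model_DLE_378, model_DLE_401, normal_346, normal_349 or normal_409 (log2 fold change -0.83). Fasn, the fatty acid synthase, was at 294, 561, 275 and 799 CPM in DLE and 175, 232, 364 and 366 CPM in normal livers (adjusted p = 0.328), and Scd1, the stearoyl-CoA desaturase, at 3466, 2832, 434 and 1180.2 CPM in DLE and 320.1, 741, 477 and 1342 CPM in normal livers (adjusted p = 0.236). Neither was called, and in both the groups overlapped. None of 26 genes of cholesterol synthesis and uptake was called by edgeR (unadjusted p under 0.05 in 3, DESeq2 0, voom 4), with a median log2 fold change of -0.07. Counts became 0 without normal_346 or normal_349 and 1 without model_DLE_401 or normal_409 for higher and 1 without model_DLE_373, model_DLE_378, model_DLE_401, normal_346, normal_349 or normal_409 for lower genes of fatty acid synthesis. With both model_DLE_361 and normal_376 left out, 4 genes of fatty acid synthesis rose and 2 fell, and of cholesterol genes 1 rose and 2 fell. The fit of all 4 groups gave 1 higher gene of fatty acid synthesis.

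Bile acid and lipoprotein genes had calls in both directions. Of 30 bile acid genes tested, 5 rose (16.7%) and 4 fell (13.3%), and of 28 apolipoprotein and lipoprotein genes, 5 rose (17.9%) and 1 fell (3.57%). Over all genes 2.33% were called higher and 2.32% lower. The classic pathway's first enzyme Cyp7a1 was at 105, 42.8, 92.3 and 28.2 CPM in DLE and 79.5, 36.8, 54.4 and 18.3 CPM in normal livers, with overlap (adjusted p = 0.651). Cyp39a1, an oxysterol hydroxylase of the alternative pathway and higher in female liver, was at 13.8, 5.12, 8.21 and 8.39 CPM in DLE and 0.309, 0.787, 0.38 and 0.201 CPM in normal livers (log2 fold change 4.36, SE 0.45, adjusted p = 2.33e-04). It rose where Cyp7b1 of the same pathway fell. Among exporters, Abcc4, of the basolateral membrane, was at 4.28, 4.25, 7.14 and 13 CPM in DLE and 1.08, 0.682, 0.237 and 0.736 CPM in normal livers (log2 fold change 3.39, SE 0.51, adjusted p = 0.00251). Abcb11, the bile salt export pump, was at 294, 284, 476 and 276 CPM in DLE and 624, 735, 832 and 737 CPM in normal livers (log2 fold change -1.14, SE 0.26, adjusted p = 0.0298; not called without model_DLE_373, model_DLE_401, normal_346, normal_349 or normal_409). Apoa4, an apolipoprotein that rises with liver triglyceride, was at 634, 1516, 433 and 944 CPM in DLE and 60.0, 55.1, 23.9 and 88.7 CPM in normal livers (log2 fold change 3.95, SE 0.49, adjusted p = 7.57e-04). Sort1, a sorting receptor for apolipoprotein B, was at 5.09, 2.15, 3.45 and 3.62 CPM in DLE and 18, 16.3, 24.1 and 11.6 CPM in normal livers (log2 fold change -2.29, SE 0.30, adjusted p = 0.00118). Neither gene overlapped between groups. Mfsd2a, the lysophospholipid transporter of periportal hepatocytes, was at 290.1, 169, 342 and 652 CPM in DLE and 8.34, 12.6, 13.6 and 15.5 CPM in normal livers (log2 fold change 4.86, SE 0.43, adjusted p = 8.02e-05), again with no overlap. Bile acid counts became 3 without model_DLE_373, normal_349 or normal_409 for higher and 2 without model_DLE_373, normal_346, normal_349 or normal_409 for lower genes, those of lipoprotein genes that rose 3 without normal_346 or normal_349, and those that fell 2 without model_DLE_361. Without both that library and normal_376, bile acid genes had 7 higher and 5 lower calls, and lipoprotein genes 5 higher and 5 lower.

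Genes of glucose handling had higher calls and no lower ones. Of 26 genes of gluconeogenesis and glycogen tested, 4 rose (15.4%) and none fell, and of 31 of glycolysis and fructose use, 3 rose (9.68%) and none fell, where 2.33% of all genes were called higher. The median log2 fold change was 0.33 for the first list and 0.61 for glycolysis and fructose use. Pck1, of gluconeogenesis, was at 2593, 2197, 2337 and 1476 CPM in DLE and 1727, 1839.9, 1909 and 2066 CPM in normal livers (adjusted p = 0.78), and G6pc, which releases glucose, at 192, 288, 399.8 and 415 CPM in DLE and 39.4, 102, 92.5 and 362 CPM in normal livers (adjusted p = 0.34). Neither was called. Ppp1r3b, which targets a phosphatase to glycogen, was at 215, 107, 177 and 356 CPM in DLE and 43.4, 65.1, 65.1 and 62.4 CPM in normal livers (log2 fold change 1.86, SE 0.33, adjusted p = 0.00755), with every DLE library above the normal ones. Sik1, a kinase induced by cAMP, was at 54.1, 24.7, 65.5 and 98.1 CPM in DLE and 12.7, 12.0, 21.7 and 14.2 CPM in normal livers (log2 fold change 2.0, SE 0.36, adjusted p = 0.00827). Khk, the fructokinase, was at 587, 659, 547 and 775 CPM in DLE and 233, 257, 234 and 338 CPM in normal livers (log2 fold change 1.27, SE 0.24, adjusted p = 0.0109; not called without normal_346 or normal_349). The other glycolysis genes that rose were Pkm, a pyruvate kinase (log2 fold change 1.06, not called without model_DLE_373, model_DLE_378, model_DLE_401, normal_346 or normal_409), and Pfkfb2, a regulator of phosphofructokinase (log2 fold change 1.38, not called without model_DLE_378, model_DLE_401, normal_346, normal_349, normal_376 or normal_409). Among secreted proteins, Fst (follistatin), an activin antagonist, was at 13.3, 9.85, 9.14 and 10.9 CPM in DLE and 1.75, 1.52, 3.04 and 1.81 CPM in normal livers (log2 fold change 2.40, SE 0.28, adjusted p = 5.14e-04). Enho, which encodes adropin, was at 1.39, 0.0876, 0.389 and 0.206 CPM in DLE and 7.98, 6.03, 5.18 and 3.48 CPM in normal livers (log2 fold change -3.46, SE 0.65, adjusted p = 0.01). Both groups of values were separate for both genes, in opposite directions. Of 27 genes of insulin signalling and hepatokines, 2 rose (7.41%) and 3 fell (11.1%, against 2.32% of all genes). Insr and Irs2 were not called (adjusted p = 0.84 and 0.919). Glycolysis counts became 0 without normal_346 and 1 without model_DLE_378, model_DLE_401, normal_349 or normal_409, and those of hepatokines that fell 1 without normal_346, normal_349 or normal_409. Leaving out both model_DLE_361 and normal_376 gave 4 higher and 1 lower for gluconeogenesis and glycogen, 4 higher for glycolysis, and 3 higher and 4 lower for hepatokines, where the fit of all 4 groups gave 1 and 1.

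Detoxification genes rose more often than they fell. Of 40 phase I and II genes tested, 8 rose and 2 fell (median log2 fold change 0.71), and of 43 NRF2 targets and glutathione genes, 9 rose and 2 fell (median 0.57). These shares were 20% higher and 5% lower for phase I and II genes, and 20.9% and 4.65% for NRF2 genes. Over all genes they were 2.33% and 2.32%. Ces1d, a carboxylesterase that also hydrolyses triglyceride, was at 760.4, 761, 1164 and 1752 CPM in DLE and 278, 144, 249.6 and 167 CPM in normal livers (log2 fold change 2.40, SE 0.36, adjusted p = 0.00244). Cyp2c38 was at 87.5, 231, 120.1 and 65.6 CPM in DLE and 13.5, 13.5, 18.3 and 15.7 CPM in normal livers (log2 fold change 3.05, SE 0.36, adjusted p = 5.82e-04). Nqo1, the quinone reductase and a standard NRF2 target, was at 24.4, 15.4, 12.1 and 16.9 CPM in DLE and 3.96, 3.09, 2.85 and 2.68 CPM in normal livers (log2 fold change 2.45, SE 0.26, adjusted p = 2.65e-04). All 3 rose in every DLE library. Abcc4, given above with the bile acid genes, was also among the 9 that rose, while 32 genes of the NRF2 list were not called. Of those not called, Gclc, of glutathione synthesis, was at 185, 348, 252 and 398 CPM in DLE and 289.7, 294, 209 and 304 CPM in normal livers (adjusted p = 0.884), and Hmox1, haem oxygenase, had an adjusted p of 0.769. Osgin1, an oxidative stress-induced growth inhibitor on the same list, fell to 294, 148, 193 and 164 CPM in DLE, against 588, 847, 1283 and 543 CPM in normal livers (log2 fold change -2.03, SE 0.35, adjusted p = 0.00567). Sult5a1, a sulfotransferase of the phase II list, fell to 3.07, 1.53, 15.7 and 2.80 CPM in DLE, against 107, 98.5, 177 and 86.3 CPM in normal livers (log2 fold change -4.35, SE 0.70, adjusted p = 0.00665). Nr1i3, the xenobiotic receptor CAR, was at 864, 1178, 2489.6 and 1554 CPM in DLE and 522, 432, 616 and 426 CPM in normal livers (log2 fold change 1.61, SE 0.35, adjusted p = 0.021; not called without normal_346, normal_349 or normal_409), and its target Cyp2b10 at 0.913, 1.97, 1.8 and 3.54 CPM in DLE and 0.154, 0.0524, 0.38 and 0.0669 CPM in normal livers (log2 fold change 3.55, SE 0.67, adjusted p = 0.00993). Counts of higher genes became 5 without normal_346, normal_349 or normal_409 for phase I and II and 5 without model_DLE_373, normal_346 or normal_349 for NRF2 genes. Those of lower phase I and II genes became 1 without model_DLE_373, model_DLE_378, model_DLE_401, normal_346, normal_349 or normal_409 and 4 without normal_376. Phase I and II genes had 13 higher and 4 lower calls without both model_DLE_361 and normal_376, and 4 and 1 in the fit of all 4 groups. NRF2 genes had 12 higher and 2 lower calls without both libraries.

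Some acute-phase and iron genes were higher, and 1 DLE library stood far above the others for part of the acute-phase genes. Of 31 acute-phase genes tested, 6 rose (19.4%, against 2.33% of all genes) and none fell, with a median log2 fold change of 0.93. Orm2, an alpha-1-acid glycoprotein, was at 2569, 163, 365 and 265 CPM in DLE and 38.9, 76.0, 61.3 and 24.4 CPM in normal livers, and Lcn2, which binds bacterial siderophores, at 1006, 41.5, 84.6 and 64.9 CPM in DLE and 6.69, 15.7, 15.6 and 9.30 CPM in normal livers. In both, model_DLE_361 stood far above the other DLE libraries. Their log2 fold changes were 4.07 and 4.66, and without model_DLE_361 they were 2.40 and 2.43. Orm2 was not called without normal_346, normal_349, normal_376 or normal_409, and Lcn2 was not called without normal_346, normal_349, normal_376 or normal_409. Saa1, serum amyloid A, was at 1941, 53.8, 211 and 71.8 CPM in DLE and 74.3, 128, 34.8 and 22.6 CPM in normal livers, with overlap, and was not called (adjusted p = 0.199). Cebpd, a transcription factor of the acute phase, was at 24.9, 16.7, 16.2 and 19.7 CPM in DLE and 5.46, 6.35, 8.31 and 6.89 CPM in normal livers (log2 fold change 1.52, SE 0.22, adjusted p = 0.00178). The count of 6 became 1 without normal_346 or normal_349 and 2 without normal_409, and 2 members were called lower without model_DLE_361. It was 7, with 4 lower, without both that library and normal_376, 1 by glmTreat, which tests for a fold of at least 1.5, and 0 in the fit of all 4 groups, where Cebpd had an adjusted p of 0.104. Of 23 metallothionein and iron genes tested, 4 rose (17.4%), and 6 without both model_DLE_361 and normal_376. Hamp2, the second hepcidin gene, was at 74.6, 296, 434 and 209 CPM in DLE and 6.69, 7.18, 9.40 and 27.8 CPM in normal livers (log2 fold change 4.31, SE 0.64, adjusted p = 0.00323), while Hamp was at 725, 488, 1289 and 1656 CPM in DLE and 661, 525, 359.6 and 884 CPM in normal livers (adjusted p = 0.356). The hepcidin genes are close copies and may share reads. Id1, a target of bone morphogenetic protein signalling, was at 15.2, 20.4, 27.8 and 44.0 CPM in DLE and 3.55, 4.67, 5.03 and 7.56 CPM in normal livers (log2 fold change 2.37, SE 0.34, adjusted p = 0.00187), and Slc39a5, a zinc importer, at 6.97, 5.87, 4.32 and 3.62 CPM in DLE and 0.36, 0.367, 0.95 and 0.335 CPM in normal livers (log2 fold change 3.33, SE 0.44, adjusted p = 0.00113). Both groups were apart in these 3 called genes.

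Complement genes and folding genes of the endoplasmic reticulum held more lower than higher calls. Interferon-stimulated genes were called about as often as all genes (5.41% against 4.65%). Lower calls made up 15% of the complement list and 10% of the endoplasmic reticulum list, against 2.32% of all genes. Of 40 complement and coagulation genes tested, 6 fell and 1 rose, with a median log2 fold change of -0.35. C4a, which encodes the sex-limited protein, a copy of complement C4 that is higher in male liver, was at 30.2, 15.2, 25.9 and 22.9 CPM in DLE and 431, 440.1, 553 and 489 CPM in normal livers (log2 fold change -4.34, SE 0.28, adjusted p = 6.14e-06). Its near copy C4b was at 2389.6, 738, 1282 and 1007 CPM in DLE and 1458, 1765, 2409 and 1374 CPM in normal livers, with overlap, and was not called (adjusted p = 0.675). F11, coagulation factor XI, was at 44.7, 51.6, 33.3 and 28.0 CPM in DLE and 186, 158, 392 and 157 CPM in normal livers (log2 fold change -2.5, SE 0.34, adjusted p = 0.00141), and C1s1, a complement protease, at 362, 456, 426 and 383 CPM in DLE and 843, 851, 1292 and 852 CPM in normal livers (log2 fold change -1.24, SE 0.25, adjusted p = 0.0164). These were separate in all 8 libraries. The count of lower genes became 11 without model_DLE_361, and that of higher genes 0 without model_DLE_373, model_DLE_401, normal_346, normal_349 or normal_376. Lower genes of this list numbered 18 without both model_DLE_361 and normal_376 and 15 by voom, and the higher one was not called in the fit of all 4 groups. Of 30 genes of the endoplasmic reticulum stress list, 3 fell and none rose. Derl3, of misfolded protein disposal, was at 0.288, 0.219, 0.0486 and 0.123 CPM in DLE and 3.29, 7.55, 3.85 and 1.61 CPM in normal livers (log2 fold change -4.54, SE 0.62, adjusted p = 0.00137). Sdf2l1, a chaperone cofactor, was at 7.30, 2.71, 1.46 and 1.73 CPM in DLE and 29.1, 30.6, 8.98 and 17.3 CPM in normal livers (log2 fold change -2.70, SE 0.54, adjusted p = 0.0173; not called without normal_346 or normal_349). The chaperone Hspa5 (BiP) and the stress factor Ddit3 (CHOP) were not called (adjusted p = 0.583 and 0.552), and the count of 3 became 1 without normal_346 or normal_349 and 5 without model_DLE_361. It was 9, with 1 higher, without both model_DLE_361 and normal_376, and 0 in the fit of all 4 groups. Of 37 interferon-stimulated genes, 2 fell, of which Ifi27 was at 23.8, 23, 28.4 and 27.6 CPM in DLE and 74.9, 59.7, 64.9 and 70.5 CPM in normal livers (log2 fold change -1.39, SE 0.17, adjusted p = 6.69e-04). The other, Iigp1, was not called without model_DLE_373, model_DLE_378, model_DLE_401, normal_346, normal_349 or normal_409, and without model_DLE_361 2 genes of the list rose. With normal_376 left out as well, 2 rose and 3 fell.

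Clock-linked genes had calls in both directions. Of 24 genes tested, 4 rose (16.7%, against 2.33% of all genes) and 2 fell (8.33%, against 2.32%). Nr1d1, the repressor REV-ERB alpha, was at 30.7, 117, 95.5 and 50.8 CPM in DLE and 268, 238, 320.3 and 347 CPM in normal livers (log2 fold change -1.99, SE 0.37, adjusted p = 0.0101). It fell with no overlap between the groups. Arntl (BMAL1) was at 5.24, 0.832, 2.58 and 5.14 CPM in DLE and 2.57, 3.78, 3.13 and 3.41 CPM in normal livers (adjusted p = 0.944), and Dbp, a clock output, at 101, 315, 277 and 89.6 CPM in DLE and 391, 266, 509 and 339.7 CPM in normal livers (adjusted p = 0.251). Neither was called, and the hour of collection was not given in the sources used here. Tsc22d3 and Fkbp5 are both induced by glucocorticoids. Tsc22d3 was at 79.2, 63.7, 99.7 and 93.7 CPM in DLE and 31.0, 30.1, 31.2 and 42.1 CPM in normal livers (log2 fold change 1.32, SE 0.20, adjusted p = 0.00304). Fkbp5 was at 88.4, 41.8, 54.8 and 102 CPM in DLE and 27.4, 31.3, 27.4 and 28.8 CPM in normal livers (log2 fold change 1.32, SE 0.26, adjusted p = 0.0148; not called without normal_346 or normal_409). Counts of genes that rose became 2 without normal_346 or normal_409, and of those that fell 1 without model_DLE_378, normal_346 or normal_409. They were 6 and 1 without both model_DLE_361 and normal_376, and 1 fell in the fit of all 4 groups.

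Some macrophage markers rose, 1 of 6 erythroid and 1 of 2 pancreas and muscle markers tested fell, and stromal, endothelial and biliary markers had no call. In bulk tissue fewer cells of a type and less RNA per cell cannot be told apart. Of 14 markers of recruited and lipid-associated macrophages tested, 3 rose (21.4%), and of 16 Kupffer cell markers 1 rose (6.25%), against 2.33% of all genes. Lgals3 (galectin-3) was at 3.84, 12.1, 7.82 and 8.64 CPM in DLE and 2.11, 1.99, 1.90 and 0.937 CPM in normal livers (log2 fold change 2.21, SE 0.38, adjusted p = 0.00602). The other macrophage markers that rose, Cd63 and Lyz2, were not called without model_DLE_361, model_DLE_373, normal_346, normal_349, normal_376 or normal_409 and without model_DLE_361, model_DLE_373, model_DLE_378, model_DLE_401, normal_346, normal_376 or normal_409. The Kupffer count became 0 without model_DLE_378, model_DLE_401, normal_346, normal_349 or normal_409, that of recruited macrophage genes 1 without model_DLE_373, normal_346, normal_376 or normal_409, and 1 gene of the recruited list fell without model_DLE_361. Recruited and Kupffer lists had 3 and 1 higher calls without both model_DLE_361 and normal_376, and 0 and 0 in the fit of all 4 groups. Of 6 erythroid markers tested, 1 fell (16.7%, against 2.32% of all genes) and 5 were not called, with a median log2 fold change of -0.16. The 1 that fell was Alas2, the haem synthesis enzyme of red cell precursors, at 39.6, 25.3, 26.0 and 16.2 CPM in DLE and 96.0, 90.1, 41.4 and 87.1 CPM in normal livers (log2 fold change -1.55, SE 0.31, adjusted p = 0.0149; not called without model_DLE_373, normal_346 or normal_409). Of 17 pancreas and muscle markers, 8 had no read in any DLE or normal library and only 2 were tested, too few to speak for a cell type. Of these 2, Cela1, an elastase, fell to 3.60, 4.33, 2.53 and 3.62 CPM in DLE, against 21.8, 18.9, 5.70 and 31.9 CPM in normal livers (log2 fold change -2.47, SE 0.42, adjusted p = 0.00581). Neither overlapped between the groups. The general macrophage genes Cd68 and Adgre1 were not called (adjusted p = 0.934 and 0.602), and the summed level of the recruited macrophage list ranged from 225 to 432 CPM in DLE and from 203 to 262 CPM in normal livers. None of 27 stellate cell and matrix genes, 25 endothelial, 9 cholangiocyte and 8 adipocyte-type genes tested was called by edgeR, while 10 of them had an unadjusted p under 0.05 and DESeq2 and voom called 5 each. Leaving out both model_DLE_361 and normal_376 gave 1 higher endothelial and 3 lower cholangiocyte genes, and the fit of all 4 groups 1 lower cholangiocyte gene. Summed levels of the stellate and matrix list ranged from 154 to 821 CPM in DLE, with model_DLE_361 lowest, and from 199 to 310.0 CPM in normal livers. Only 2 of 15 neutrophil markers and 7 of 23 lymphocyte markers passed the filter, and none was called by edgeR (unadjusted p under 0.05 in 4 of 9, DESeq2 4, voom 1). Of the neutrophil markers, S100a9 was at 19.1, 0.131, 2.82 and 2.14 CPM in DLE and 0.566, 0.315, 0.617 and 0.602 CPM in normal livers, highest in model_DLE_361. Their part in the acute-phase values of that library was not tested. Zonation genes were mixed: of 27 pericentral genes 4 rose (14.8%) and 1 fell (3.7%), and of 27 periportal genes 2 rose and 2 fell (7.41% each). Over all genes 2.33% were called higher and 2.32% lower. The pericentral counts became 0 without normal_346, normal_349 or normal_409, 1 without model_DLE_373 and 2 without model_DLE_378 for higher and 0 without model_DLE_373, model_DLE_378, model_DLE_401, normal_346, normal_349 or normal_409 for lower genes, and 6 periportal genes fell without model_DLE_361. Without both model_DLE_361 and normal_376, 6 pericentral genes rose and 1 fell, and 2 periportal genes rose and 7 fell. No pericentral gene was called in the fit of all 4 groups. Glul, the glutamine synthetase of cells around the central vein, was at 1235, 641, 538 and 514 CPM in DLE and 819, 846, 706 and 651 CPM in normal livers (adjusted p = 0.962). Cdh1 (E-cadherin), a periportal adhesion protein, was at 0.961, 3.72, 2.28 and 3.45 CPM in DLE and 15.6, 15.6, 12.9 and 17.0 CPM in normal livers (log2 fold change -2.54, SE 0.35, adjusted p = 0.00143). None of 75 ribosomal protein genes, 49 nuclear respiratory chain genes, 34 proteasome genes, 13 mitochondrially encoded genes and 26 cell cycle genes was called, and edgeR's unadjusted p was under 0.05 for 6 of these 197 genes. DESeq2 called 2 of them and voom 1.

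The remaining lists had at most 3 calls each. Their shares are set against 2.33% called higher and 2.32% called lower among all genes. Of 18 p53 and DNA damage targets tested, 3 rose (16.7%), among them Cdkn1a (p21), an inhibitor of the cell cycle (log2 fold change 4.48), with Trp53inp1 (1.63) and Ccng1 (1.11). Of 41 genes of the urea cycle and amino acid breakdown, 2 rose (4.88%), the methyl donor enzymes Gnmt (1.62) and Mat1a (1.38). Of 21 immediate early and hypoxia genes, Junb (-1.67) and Ier2 (-1.34) fell (9.52%) and Pdk1 (0.86) rose (4.76%). Of 20 strain-linked genes H2-Aa (1.83) rose (5%). Each of these 9 genes was called in 1 to 5 of the 8 fits with a library left out. Of 26 hepatocyte transcription factors only Nr1i3 was called (3.85%). Of 20 cytokine and chemokine genes none was called by edgeR (unadjusted p under 0.05 in 7, DESeq2 3, voom 7, and 7 higher without both model_DLE_361 and normal_376).

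The saline db/db (model) and pioglitazone (PGZ) groups show where these differences stood without the extract. All 3 db/db groups are set against the same normal libraries, so their folds share that reference and are given side by side only. Levels in this paragraph come from a scaling of all 16 libraries. Selenbp2 averaged 6.91 ± 1.48 CPM in DLE, 3.65 ± 1.17 CPM in model, 6.85 ± 4.0 CPM in PGZ and 4111 ± 192 CPM in normal livers (SD, n = 4 each). Sult1e1 averaged 134 ± 60.7 CPM in DLE, 123 ± 56.9 CPM in model, 50.5 ± 19.5 CPM in PGZ and 0.284 ± 0.158 CPM in normal livers. Cd36 averaged 115 ± 39.0 CPM in DLE, 144 ± 76.8 CPM in model, 214 ± 57.7 CPM in PGZ and 5.30 ± 3.60 CPM in normal livers. In these 3 genes all 3 db/db groups lay on the same side of normal. For Cyp4a10 and Lepr the DLE mean was the highest of the 4 groups. Cyp4a10 averaged 1198 ± 649.7 CPM in DLE, 593 ± 579.8 CPM in model, 595 ± 44.4 CPM in PGZ and 49.2 ± 12.2 CPM in normal livers. Lepr averaged 11.5 ± 6.89 CPM in DLE, 5.63 ± 1.87 CPM in model, 5.33 ± 1.71 CPM in PGZ and 1.75 ± 0.316 CPM in normal livers. DLE and model libraries overlapped in both genes. Derl3 was at 0.293, 0.223, 0.0509 and 0.126 CPM in DLE and 39.0, 0, 0.953 and 0.0425 CPM in model livers, against 3.38, 7.75, 3.96 and 1.65 CPM in normal livers. Here the model libraries spread from below the DLE values to above the normal ones.

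The direct test of DLE against model in the fit of all groups called 0 of 15744 genes (edgeR), although 2249 had an unadjusted p under 0.05. None of the genes named here therefore passed that test, and the differences from normal described above are not shown to differ from those of untreated db/db livers. A p that misses the threshold does not show that DLE and model livers were alike. DESeq2 called 386 genes and voom 11. Without model_329, edgeR called 511 genes, 14 of them among the genes chosen by the naming rule, and without model_DLE_361 or without model_DLE_378 it called 1. The log2 fold change of DLE over model was 1.03 for Lepr, 1.01 for Cyp4a10, 0.92 for Selenbp2, 0.12 for Sult1e1 and -2.12 for Lgals3.

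**Figure D5:**
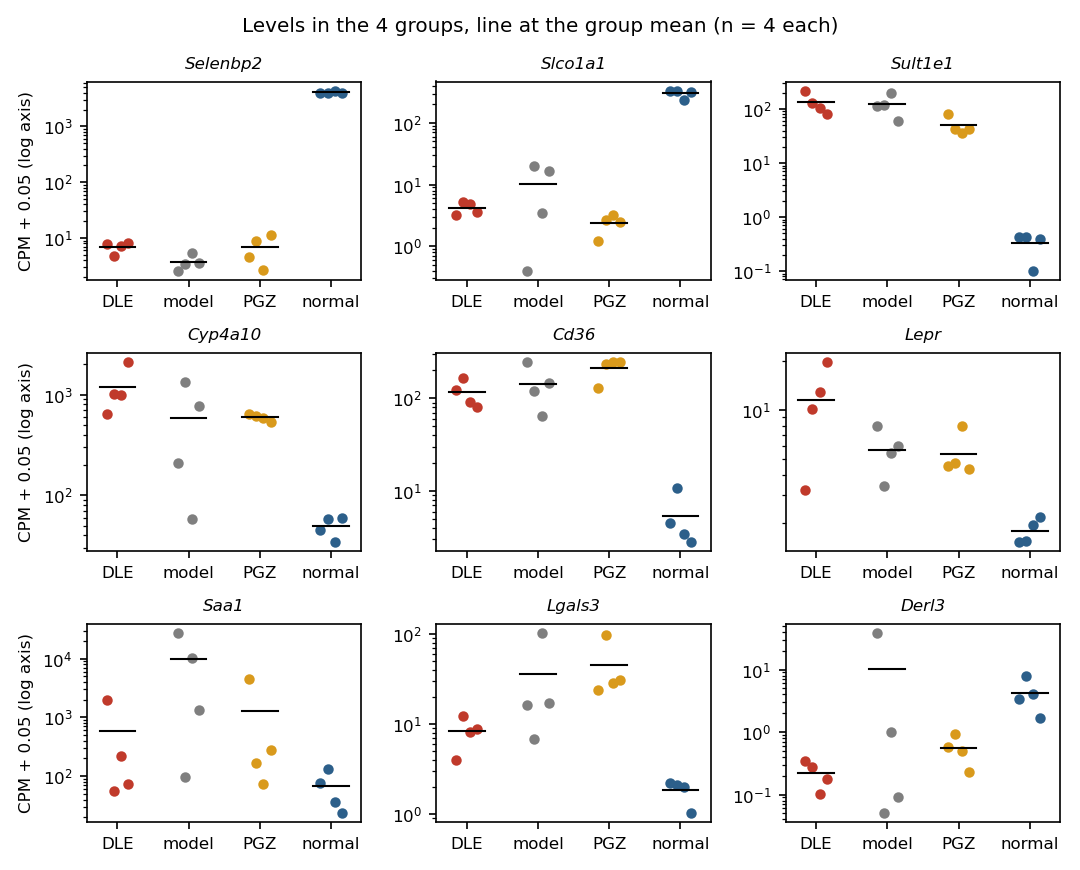
CPM + 0.05 on log axes of 9 genes in every library of the DLE, model, PGZ and normal groups, with a line at the group mean. The normal libraries lie apart from all 3 db/db groups for Selenbp2, Slco1a1, Sult1e1 and Cd36, whereas DLE and normal values overlap for Saa1.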

How the data were processed

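The authors deposited 1 table of raw counts, whole numbers of reads for each Ensembl gene. Per the labels' protocols, TRIzol was used to extract total RNA, with a DNase step. The submitters' processing notes list the build GRCm38 and the tools HISAT2 2.1.0, CASAVA 1.8.2, StringTie 1.3.3b, FastQC 0.11.5 and DESeq2 1.28.0. Strand setting and treatment of multi-mapped reads are not given in the sources used here, so copies of a gene and antisense partners are uncertain. The table held 46078 genes, of which 98.0% were matched to GENCODE M21 (GRCm38) for symbols and positions, and 56 identifiers shared a symbol. 4 columns for white tea extract were empty and not used here. Groups came from the labels.

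The count tests used edgeR 4.0.16 in R 4.3.3 (filterByExpr, TMM, robust glmQLFit and glmQLFTest, two-sided) on the 8 DLE and normal libraries. DLE versus model was tested in a fit of all 16. All adjusted p-values are edgeR's, with Benjamini-Hochberg adjustment across the tested genes, and genes were called under 0.05. Levels are CPM after TMM scaling, and are not compared between genes. Folds against a group without reads use a floor of 3 reads over the group. Counting intervals and floors cover counting error only. No pair of replicates agreed within sampling noise. The procedure was tested on simulated data.

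The contrast, 44 gene lists and the naming rule were chosen with earlier results of these data known. The rule names up to 10 called genes each way with the largest fold change, a mean of at least 1 CPM and no overlap, per list the up to 4 called members of smallest p (2 where none was called), and Lepr, Nnt, Pparg, Ppara, Ddx3y and Xist. Named beyond it, after their values were seen, were Abcb11, Adgre1, Ak4, Alb, Arntl, C1s1, C4b, C8a, Cd68, Cpt1a, Cux2, Cyp17a1, Cyp2b10, Cyp4a14, Cyp7a1, Dbp, Ddit3, Fasn, G6pc, Gclc, Ghr, Glul, Hamp, Hmox1, Hspa5, Igf1, Insr, Irs2, Lcn2, Lifr, Osgin1, Pck1, Pdk4, Ror1, Saa1, Scd1, Slc22a26, Stat5b, Sult5a1 and Ube2u. Some genes the rule names are not reported here. A position window of 5 Mb was used. Alternatives were RLE and upper quartile scaling, no filter, at least 1 CPM in 4 libraries with 200 reads in all, a fit of all groups, glmTreat at 1.5-fold, DESeq2 1.42.0, limma 3.58.1 voom, mitochondrial genes left out, and each library left out. Figures were drawn with matplotlib 3.10.9.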

Additional observations from a re-analysis of the deposited data

Results flagged for a closer look

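Within a group of 4 libraries, on the log2(CPM + 0.5) scale, a single library was taken to stand apart where its gap to the nearest of the others, as a share of the group's whole range, exceeded Dixon's 95% critical value; that share stands in brackets below. Chance gives this in about 1 of 20 groups, and 34 of 358 groups of genes and list means looked at met it, 15 of them through normal_376. For the mean level of the lists acute-phase protein genes (0.85) and hepatocyte markers (0.857), model_DLE_361 was the highest DLE library by that share of the range. For Cyp2a22 (0.918), Cyp2b13 (0.907) and Pdk1 (0.939), model_DLE_361 was the lowest DLE library by that share of the range. For the mean level of the list sinusoidal and vascular endothelial markers (0.867), model_DLE_361 was the lowest DLE library by that share of the range. For Abcb11 (0.885), model_DLE_378 was the highest DLE library by that share of the range. For the mean level of the list insulin signalling and hepatokines (0.857), model_DLE_378 was the lowest DLE library by that share of the range. For Cyp4a14 (0.861), model_DLE_401 was the highest DLE library by that share of the range. For the mean level of the list p53 and DNA damage targets (0.861), model_DLE_401 was the highest DLE library by that share of the range. For Sult2a7 (0.863), model_DLE_401 was the lowest DLE library by that share of the range. For Ppp1r3b (0.893), normal_346 was the lowest normal library by that share of the range. For Cdkn1a (0.834) and Slc22a27 (1.0), normal_349 was the highest normal library by that share of the range. Every other normal library had no read of Slc22a27, so its share is 1.0 whatever the count in normal_349, and the chance rate above does not hold for it. For S100a9 (0.851), normal_349 was the lowest normal library by that share of the range. For C1s1 (0.974), Cyp21a1 (0.852), Cyp2a22 (0.856), Ier2 (0.933), Insr (0.862) and Slc39a5 (0.931), normal_376 was the highest normal library by that share of the range. For Alas2 (0.884), Cyp7b1 (0.86), Gclc (0.871), Hsd3b5 (0.904) and Sult1e1 (0.917), normal_376 was the lowest normal library by that share of the range. The normal values of Sult1e1, 0.0475 to 0.367 CPM, rest on 20 reads over the group. For the mean level of the lists male-biased liver genes (0.896), growth hormone and STAT5 signalling (0.862), cytosolic ribosomal proteins (0.88) and nuclear respiratory chain genes (0.836), normal_376 was the lowest normal library by that share of the range. For Tsc22d3 (0.893), normal_409 was the highest normal library by that share of the range. For Gpat3 (0.882) and Lgals3 (0.859), normal_409 was the lowest normal library by that share of the range. For the mean level of the list Kupffer cell markers (0.865), normal_409 was the lowest normal library by that share of the range.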

How the results depend on the processing

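Of 675 genes called (338 higher, 337 lower), glmTreat, which tests for a fold of at least 1.5, called 303 (162 and 141), DESeq2 1285 (699 and 586) and voom 1448 (750 and 698). Leaving out 1 library gave 350 to 953 calls (172 to 513 higher, 178 to 440 lower), and leaving out both model_DLE_361 and normal_376, an alternative chosen after the data were seen, gave 1306 (696 and 610). The cause of these differences was not tested, and each fit with a library left out also has fewer samples. RLE and upper quartile scaling, no filter, the stricter filter, the fit of all 4 groups (557) and counts without mitochondrially encoded genes stayed within 1.5 times of the total. By list, the fit of all 4 groups ended the higher calls of acute-phase (6), pericentral (4), recruited macrophage (3) and Kupffer (1) genes and the lower calls of endoplasmic reticulum genes (3). For DLE versus model, the genes chosen by the naming rule had 0 calls, against 13 with DESeq2 and 0 to 14 with 1 library left out, and 0 with DLE and model libraries only. Across alternatives, 2441 fold changes of 136 named genes gave 0 changes of direction for a called gene, 291 lost and 46 gained calls. No paired analysis was possible because the replicate numbers are animal numbers that the groups do not share. Genes under about 1 CPM rest on few reads, and with 4 libraries a group a difference may have been missed.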

Other observations

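Genes on none of the lists were also called in all 8 fits with 1 library left out, and the following were chosen after their values were seen. Beside C4a on chromosome 17, its neighbour Cyp21a1, the steroid 21-hydroxylase, was at 0.0961, 0.0438, 0.0486 and 0.123 CPM in DLE and 5.66, 5.03, 10.9 and 5.09 CPM in normal livers (log2 fold change -6.30, SE 0.49, adjusted p = 3.98e-05). Aox3, an aldehyde oxidase of the liver, was at 53.9, 65.4, 83.7 and 46.2 CPM in DLE and 399, 325.5, 442 and 297 CPM in normal livers (log2 fold change -2.55, SE 0.26, adjusted p = 1.99e-04). Thra, the thyroid hormone receptor alpha, was at 20.4, 70.3, 43.3 and 25.2 CPM in DLE and 149.9, 138, 197 and 186 CPM in normal livers (log2 fold change -2.07, SE 0.36, adjusted p = 0.00581). All 3 fell with no overlap between the groups. Meg3, an imprinted non-coding RNA, was at 9.99, 7.53, 21.8 and 4.94 CPM in DLE and 180.3, 142, 129 and 60.2 CPM in normal livers (log2 fold change -3.53, SE 0.48, adjusted p = 0.00153).

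Sult2a7, a hydroxysteroid sulfotransferase, was at 139.9, 137, 155 and 62.4 CPM in DLE and 1.65, 2.73, 1.99 and 1.94 CPM in normal livers (log2 fold change 5.89, SE 0.34, adjusted p = 3.56e-06). In the scaling of all 16 libraries it averaged 127 ± 43.3 CPM in DLE, 135 ± 129.9 CPM in model, 6.54 ± 8.78 CPM in PGZ and 2.13 ± 0.471 CPM in normal livers (SD, n = 4 each), so the PGZ mean lay nearest to normal. Gpat3, an acyltransferase of triglyceride synthesis, was at 21.0, 16.2, 12.5 and 28.5 CPM in DLE and 2.32, 2.25, 2.47 and 1.07 CPM in normal livers (log2 fold change 3.26, SE 0.33, adjusted p = 1.99e-04). Hdc, which makes histamine from histidine, was at 112, 142, 121 and 216 CPM in DLE and 34.6, 40.4, 40.1 and 36.5 CPM in normal livers (log2 fold change 1.96, SE 0.24, adjusted p = 6.30e-04). Lipa, the lysosomal acid lipase, was at 123, 108, 77.1 and 78.0 CPM in DLE and 41.4, 46.0, 33.8 and 42.0 CPM in normal livers (log2 fold change 1.24, SE 0.21, adjusted p = 0.00546). These 4 rose in every DLE library.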
